A study of Canis lupus familiaris with 222 samples.

Results

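The 100 genes described here had the largest mean gain of expression in canine mammary tumors (CMTs) over normal mammary tissue of the same dog. They were chosen by measured FPKM values, and were taken from 13611 Ensembl gene identifiers that had a mean of at least 1 FPKM over both libraries of 64 dogs with tumor and normal tissue, of 24580 identifiers in all. FPKM, the unit of every level below, is the number of sequenced fragments relative to the length of the transcript and to the mapped fragments of the library. For each dog the log2(FPKM + 1) value of the normal tissue was subtracted from that of the tumor, and the 64 differences were averaged. This average is called the gain, and a gain of 1 doubles FPKM + 1. The identifiers ENSCAFG00000015860, ENSCAFG00000007857 and ENSCAFG00000006073 were left out by the rule, and they stood at ranks 1, 2 and 3480 of the full order.

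RNA-seq was available for 158 CMTs and for normal mammary tissue of 64 of these female dogs, and no treatment or gene alteration separated the groups. The 64 paired tumors comprised 8 simple adenomas, 5 complex adenomas, 3 benign mixed tumors, 20 simple carcinomas, 19 complex carcinomas, 6 carcinomas in benign mixed tumors and 3 tumors of other histologies. The 94 tumors outside the pairs comprised 10, 12, 7, 39, 14, 7 and 5 of the same kinds in this order, and the 8 tumors of other histologies were 3 carcinosarcomas, 3 osteosarcomas, 1 fibrosarcoma and 1 spindle cell carcinoma. The labelled age ran from 2 to 19 with a median of 12 for the paired dogs, and from 2 to 16 with a median of 12 for 87 of the other 94 dogs. The labels gave 42 of the paired dogs as intact and 22 as neutered, against 64 and 27 of the others with 3 not given, and Maltese was the most frequent breed in both sets, with 25 and 23 dogs.

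Canine mammary tumors arise spontaneously from a gland built of luminal epithelial cells and a surrounding layer of myoepithelial cells. Simple tumors hold 1 of these epithelial lineages, complex tumors hold both, and mixed tumors also hold cartilage or bone. A bulk library reads all cells of the piece of tissue together, fibroblasts, blood vessels and leukocytes included, so a higher level of a gene may come with more cells of a type or with more RNA per cell, and these cannot be told apart. None of the identifiers could be matched to a gene name with the tables used here. The genes are therefore given by identifier, their functions and sequences are not given, and the labelled tissue could not be checked against marker genes.

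The gain was between 1.36 and 3.48 on the log2 scale over the 100 genes, with a median of 1.66, against a median of 0.076 over all 13611 identifiers. Of the 100 genes, 18 had a gain of at least 2 and 3 had a gain of at least 3. The gene at rank 100 had a gain of 1.3631 and the next one, just outside, had 1.3567, so the border of the list falls in a continuous series of values. Because these differences chose the genes, they are a description and carry no test.

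The largest gain belonged to ENSCAFG00000011534. Its level was between 0.00661 and 31.0 FPKM in the 64 normal tissues, with a median of 0.133, and between 0.00893 and 423 FPKM in the 64 paired tumors, with a median of 13.5. The tumor was higher in 60 dogs, and the mean gain was 3.48 ± 2.50 (SD, n = 64). The tissues overlapped all the same, since only 21 of the 64 paired tumors exceeded the highest normal tissue. In the 94 tumors outside the pairs ENSCAFG00000011534 ran from 0.00378 to 237 FPKM with a median of 7.16.

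ENSCAFG00000014019 had the second largest gain, 3.36 ± 2.88 (SD, n = 64), and was higher in the tumor of 53 dogs. It lay between 0.454 and 100.8 FPKM in the normal tissues, with a median of 1.75. The paired tumors reached from a value listed at 0 to 1763 FPKM, with a median of 43.4, and 18 of them exceeded the highest normal tissue. Outside the pairs ENSCAFG00000014019 ran from 0.364 to 735 FPKM with a median of 16.7. Both of these genes were thus low in most normal glands and spread over several orders of magnitude among tumors.

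Most of the 100 genes were already expressed in normal tissue. The mean level in normal tissue was between 0.274 and 3434 FPKM with a median of 11.8, and 4 genes were below 1 FPKM, 36 below 5 FPKM and 18 at or above 100 FPKM. The median of the mean levels was 54.4 FPKM in the paired tumors and 52.4 FPKM in the tumors outside the pairs. A gene was higher in the tumor of between 24 and 60 of the 64 dogs, with a median of 52, and 69 genes were higher in at least 48 dogs. None was higher in all 64. The 5 genes that were higher in 60 dogs were ENSCAFG00000011534, ENSCAFG00000019985, ENSCAFG00000001597, ENSCAFG00000000903 and ENSCAFG00000016522, named after their values were seen.

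These 5 genes differed widely in level. ENSCAFG00000016522 lay between 29.7 and 172 FPKM in normal tissue, with a median of 56.9, and between 42.1 and 394 FPKM in the paired tumors, with a median of 176. Its gain of 1.41 ± 0.84 (SD, n = 64) was near the lower end of the list but varied less between dogs than that of the leading genes. ENSCAFG00000000903 had a median of 0.957 FPKM in normal tissue and of 4.06 FPKM in the paired tumors. The median of ENSCAFG00000001597 was 2.44 FPKM in normal tissue and 17.1 FPKM in the paired tumors.

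ENSCAFG00000028483 behaved unlike the other 99 genes. It was listed at 0 in 48 of the 64 normal tissues, 40 of the 64 paired tumors and 69 of the 94 other tumors, and at no less than 5689 FPKM in the remaining 65 libraries. In the dogs with both tissues it was at 0 in both for 30 dogs, above 0 in both for 6, in the tumor alone for 18 and in the normal tissue alone for 10, so its gain of 1.87 rests on the excess of 18 over 10 dogs. It was higher in the tumor of 24 dogs and its median difference was 0. Such a gap above 0 was seen to a lesser degree in ENSCAFG00000008404, which was listed at 0 in 4 tumors outside the pairs and at no less than 33.8 FPKM elsewhere. An exact 0 in an FPKM table may be a failed estimate, and whether these values are was not tested. In all, 40 of the 100 genes were listed at 0 in at least 1 library.

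Each dog carried a different share of the gain. The number of genes that were higher in the tumor than in the normal tissue of the same dog was between 24 and 99 of 100, with a median of 85.5, and was at least 90 in 29 dogs. In 7 dogs fewer than 50 of the genes were higher in the tumor. The study's annotation assigns each tumor to 1 of 5 clusters found by non-negative matrix factorization (NMF) of the same transcriptomes, NMF1 to NMF5. The paper made them from tumors and normal tissues together and describes NMF4 and NMF5 as specific to adjacent normal tissue. Tumors in these clusters therefore resemble normal tissue by the way they were assigned. Of these 7 dogs 3 were among the 37 with an NMF1 tumor, 2 among the 4 with an NMF4 tumor and 2 were the 2 with an NMF5 tumor. Paired NMF1 tumors had a median of 91 genes higher, NMF2 tumors 80.5, NMF3 tumors 69.0, NMF4 tumors 49.5 and NMF5 tumors 43.0. By malignancy, the median was 84.5 genes in the 16 dogs with benign tumors and 86.5 in the 48 with malignant tumors.

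The mean log2(FPKM + 1) over the 100 genes gives 1 level per library. It lay between 1.21 and 4.61 in the normal tissues, with a median of 3.28, between 2.31 and 6.14 in the paired tumors, with a median of 5.22, and between 2.24 and 6.201 in the tumors outside the pairs, with a median of 4.86. The highest normal tissue was exceeded by 44 of the 64 paired tumors and by 54 of the 94 others. Over all identifiers the corresponding median was 3.27 in normal tissues, 3.27 in paired tumors and 3.28 in the others.

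**Figure D1:**
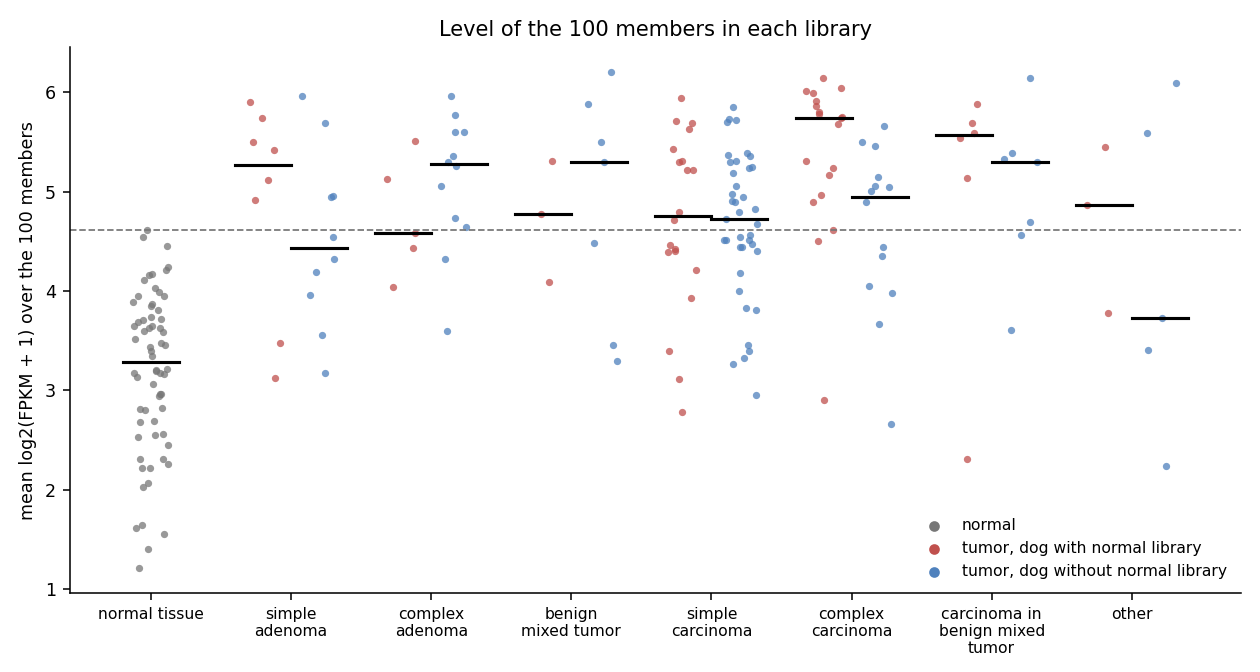
Mean log2(FPKM + 1) over the 100 genes (vertical axis) in each of 222 libraries, by tissue and histology (horizontal axis). Points are libraries, black lines are group medians, grey is normal tissue, red is tumors of dogs with a normal library, blue is tumors outside the pairs, and the dashed line marks the highest normal tissue at 4.61, which 98 of 158 tumors exceeded.

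The same 100 genes were then examined in the 94 tumors that played no part in choosing them. The mean of log2(FPKM + 1) in these tumors was above the mean of the 64 normal tissues for all 100 genes, and the difference was at least 1 for 93 of them. The median difference was 1.48 and the range 0.276 to 2.75, against a median of 0.066 over all 13611 identifiers. The normal tissues are the ones the rule used, so these differences share them with the gain and were not tested. The gene with the smallest difference was ENSCAFG00000028483, with 0.276. In 77 of the 100 genes the tumors outside the pairs were lower on average than the paired tumors. The median difference was -0.24 over the 100 genes, against -0.015 over all 13611 identifiers. The rule favored genes with high values in the paired tumors, so nothing is read from this difference.

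**Figure D2:**
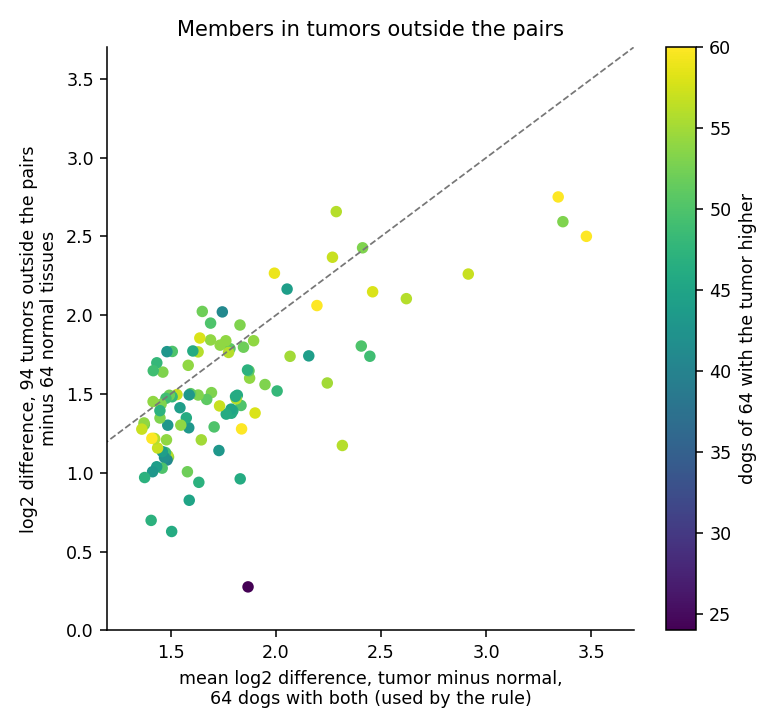
Gain in the 64 pairs (horizontal axis, log2) against the difference of the 94 tumors outside the pairs from the 64 normal tissues (vertical axis, log2), with 1 point per gene. The colour gives the number of dogs with the tumor higher, the dashed line marks equal values, and all 100 genes lie above 0, with 93 at or above 1.

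A difference in means did not separate single tumors from normal tissue. For the median gene 83.0% of the tumors outside the pairs were above the median normal tissue, but only 10.1% were above the highest. The largest such share was 44.7%, or 42 of 94 tumors, for ENSCAFG00000014457, and 8 of the 100 genes had no tumor outside the pairs above the highest normal tissue. ENSCAFG00000014457, named after its values were seen, had a median of 0.445 FPKM and a maximum of 4.94 FPKM in normal tissue, and a median of 3.48 FPKM and a maximum of 62.2 FPKM in the tumors outside the pairs.

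Whether the genes differ between malignant and benign tumors was tested in the tumors outside the pairs, 65 malignant and 29 benign by their labels. With limma on log2(FPKM + 1), none of the 100 genes passed an adjusted p of 0.05, and the share of all 14487 identifiers tested that passed was 0%. At an unadjusted p under 0.05 there were 9 of the 100 genes and 1654 of all identifiers. The difference of malignant minus benign had a median of -0.21 over the 100 genes, against -0.025 over all identifiers, and was below 0 for 66 of them. The 95% interval of the difference lay within ±1 for 40 of the 100 genes, and its median half-width was 0.81. This interval is not adjusted for the number of identifiers tested, so differences well above that size could also go uncalled.

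The lowest adjusted p in this comparison belonged to ENSCAFG00000000200, named after its values were seen. It had a median of 112.2 FPKM in the malignant tumors, with a range of 0.380 to 999.7, and of 32.3 FPKM in the benign tumors, with a range of 0.794 to 511. The difference was 1.79 ± 0.46 (SE) on the log2 scale with an adjusted p of 0.166 in limma. It was also the 1 gene of the 100 past the threshold as higher in malignant tumors when all 158 tumors were fitted, where 0.329% of all identifiers were, with a difference of 1.44 ± 0.36 (SE). That fit adds the 64 paired tumors whose values chose the genes, so nothing is read from it. In the 64 paired tumors none of the 100 was called, 4 passed an unadjusted p of 0.05, and the median difference was 0.20, so the sign of the median was not the same in both sets of tumors. With malignancy taken from the study's annotation instead of the labels (71 malignant and 22 benign tumors outside the pairs), none was called either, with 7 genes at an unadjusted p under 0.05. Labels and annotation thus disagree on malignancy for some tumors, and the comparisons by grade were not refitted with the annotation.

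The genes were above normal tissue in benign tumors as well as in malignant ones. The median difference from normal tissue over the 100 genes was 1.64 in the 29 benign tumors outside the pairs and 1.40 in the 65 malignant ones, and all 100 genes were above normal in benign tumors and 99 in malignant tumors. Within the pairs, the median gain was 1.47 in the 16 dogs with benign tumors and 1.70 in the 48 with malignant tumors. The exception in malignant tumors outside the pairs was ENSCAFG00000028483, with -0.17.

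Tumor grade was examined next, in 39 grade 1 and 16 grade 3 tumors outside the pairs, in a limma fit over all 94. Histology was not balanced between these grades, and the fit did not adjust for it. Simple carcinomas were 11 of the 16 grade 3 and 20 of the 39 grade 1 tumors. Without the other histologies 13 and 38 tumors remained, and the paper graded osteosarcomas and fibrosarcomas by separate systems. Of the 100 genes 3 were lower in grade 3, where 3.60% of all 14487 identifiers were lower, and none was higher, where 3.55% were. The count of lower genes is close to the share over all identifiers. At an unadjusted p under 0.05 there were 20 of the 100 genes and 2930 identifiers in all. The median difference was -0.10 over the 100 genes, and 43 of them were above 0.

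ENSCAFG00000023658 was lower in grade 3 by the smallest p. It lay between 0.580 and 30.4 FPKM in the grade 3 tumors, with a median of 1.61, between 0.808 and 71.1 FPKM in the grade 1 tumors, with a median of 11.2, and between 0.247 and 25.1 FPKM in normal tissue, with a median of 2.55. Of the 16 grade 3 tumors 1 exceeded the grade 1 median. The log2 difference was -1.81 ± 0.31 (SE), with an adjusted p of 3.665e-05 in limma. The grade 3 median was therefore below that of normal tissue, while the grade 1 median and the benign median of 10.95 FPKM were above it.

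ENSCAFG00000003648 showed the largest difference of the 3. It was between 0.772 and 8067 FPKM in grade 3 tumors, with a median of 15.9, between 9.50 and 10201 FPKM in grade 1 tumors, with a median of 364.5, and between 0.373 and 2536 FPKM in normal tissue, with a median of 178. The difference was -3.83 ± 0.74 (SE), with an adjusted p of 2.2146e-04 in limma, and 2 of the 16 grade 3 tumors exceeded the grade 1 median. This gene spans 4 orders of magnitude among tumors, and its groups overlapped over almost the whole range.

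ENSCAFG00000003891 was the last of the 3 and is named because of this count. It was between 0.0344 and 117 FPKM in grade 3 tumors, with a median of 2.09, between 0.138 and 151 FPKM in grade 1 tumors, with a median of 26.7, and between 0.0345 and 59.97 FPKM in normal tissue, with a median of 3.93. The difference was -2.57 ± 0.55 (SE), with an adjusted p of 7.9432e-04 in limma.

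In the 64 paired tumors, whose values were used to choose the 100 genes, the differences are a description and no repeat of the test. There the differences between 12 grade 3 and 23 grade 1 tumors were -2.04 for ENSCAFG00000023658, -3.95 for ENSCAFG00000003648 and -2.12 for ENSCAFG00000003891. Among tumors outside the pairs operated on in 2017 (12 of grade 3 and 24 of grade 1), the differences were -1.72, -3.26 and -2.43, and all 3 were called. In the tumors of 2016 (4 and 11) they were -2.12, -5.16 and -3.41 and none was called. No grade 3 tumor outside the pairs was of 2018. With histology group as covariate among the malignant tumors outside the pairs, the differences were -1.84, -4.21 and -2.69. In that fit the same 3 of the 100 genes were called lower, where 2.61% of all identifiers were.

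**Figure D3:**
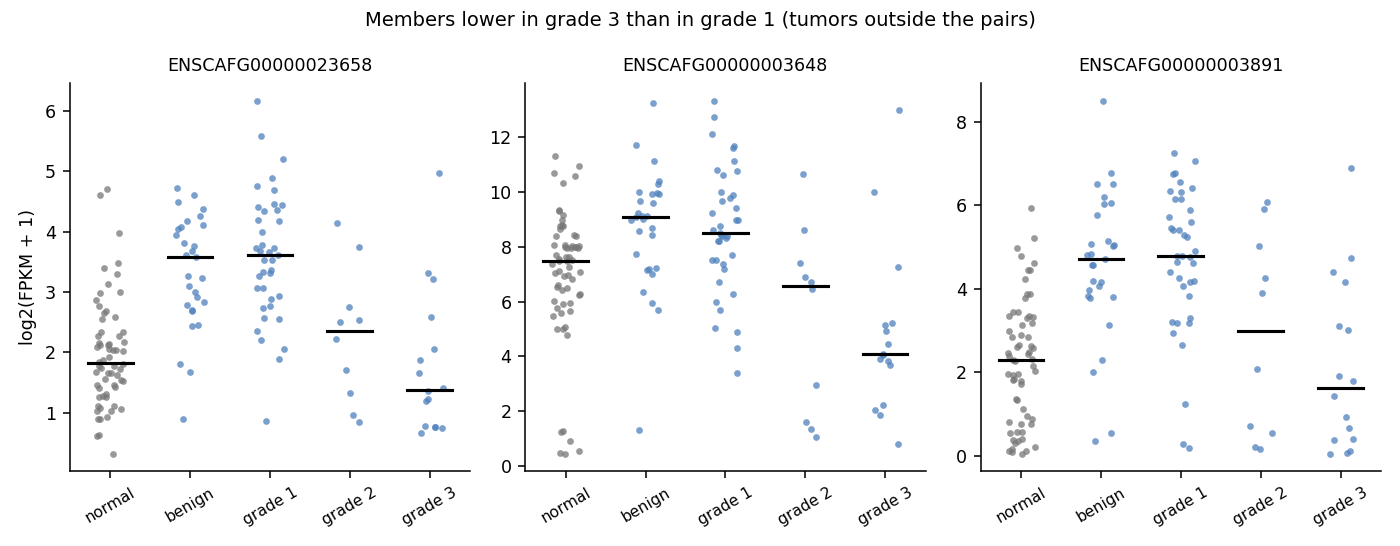
log2(FPKM + 1) (vertical axes) of the 3 genes that were lower in grade 3 than in grade 1, in 64 normal tissues (grey) and in 29 benign, 39 grade 1, 10 grade 2 and 16 grade 3 tumors outside the pairs (blue). Points are libraries and black lines are medians, and the grade 3 median lies below that of grade 1 in each panel, by 1.61 against 11.2 FPKM for ENSCAFG00000023658.

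More genes differed by grade within the paired tumors themselves. There 20 of the 100 were lower in grade 3 and 2 were higher, where 7.32% and 4.85% of all identifiers were called lower and higher. In all 158 tumors 22 were lower and 2 higher, against 12.3% and 9.05% of all identifiers. The paired tumors were used to choose the genes, so these counts are no separate evidence on grade. The median gain was 1.93 in the 23 dogs with grade 1 tumors, 1.81 in the 13 with grade 2 and 1.45 in the 12 with grade 3, and outside the pairs the median difference from normal tissue was 1.47, 1.37 and 1.45 in 39, 10 and 16 tumors.

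Differences by histology were tested over 6 groups of tumors outside the pairs, 89 in all without the other histologies. With limma's F test none of the 100 genes passed an adjusted p of 0.05, and 0.00691% of all 14471 identifiers did. At an unadjusted p under 0.05 there were 23 of the 100 genes and 833 identifiers in all. The range of the group means had a median of 1.49 over the 100 genes, against 0.44 over all identifiers, and went up to 4.90. The 100 genes also varied more between single tumors outside the pairs, all histologies together. There the SD of log2(FPKM + 1) had a median of 1.85 over the 100 genes, against 0.615 over 13611 identifiers. This SD includes any spread between histologies, so it does not tell where the wider range of group means comes from. With none of the genes called, the range is not read as a difference by histology. When the 5 tumors of other histologies were added as a seventh group, 8 of the 100 genes passed, against 2.58% of all identifiers. With 150 tumors 19 passed, against 2.41%, but these include the paired tumors whose values chose the genes, and nothing is read from this count.

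The largest range of group means belonged to ENSCAFG00000028483, which is listed at 0 in most libraries, with 4.90 and an adjusted p of 0.986. The next was ENSCAFG00000003369, with a range of 3.88, an F of 7.16 and an adjusted p of 0.0862 in limma, the lowest of the 100. Its median was 68.3 FPKM in the 7 benign mixed tumors, with a range of 11.7 to 390, and 39.0 FPKM in the 12 complex adenomas, with a range of 0.823 to 161. In the 10 simple adenomas the median was 3.04 FPKM, with a range of 0.182 to 13.8, and in the 39 simple carcinomas it was 2.45 FPKM, with a range of 0.0116 to 163. The complex carcinomas had a median of 9.46 FPKM and the carcinomas in benign mixed tumors of 3.77 FPKM. Normal tissue had a median of 1.94 FPKM.

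Over the 6 groups outside the pairs, complex adenomas held the highest mean for 33 of the 100 genes, carcinomas in benign mixed tumors for 23, benign mixed tumors for 18, simple adenomas for 13, complex carcinomas for 9 and simple carcinomas for 4. The lowest mean was in simple adenomas for 33 genes and in complex carcinomas for 24. Genes that vary together are counted singly here, so these are not counts of separate results, and they were not tested. The median difference from normal tissue was 1.84 in complex adenomas, 1.62 in carcinomas in benign mixed tumors, 1.56 in benign mixed tumors, 1.47 in complex carcinomas, 1.45 in simple carcinomas and 1.35 in simple adenomas. The 5 tumors of other histologies had a median difference of 0.98, with 78 of the 100 genes above normal tissue and a range of -3.39 to 5.22, the widest of the groups outside the pairs.

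In the paired dogs the order of histologies was not the same. There the median gain was 2.09 in the 19 complex carcinomas, with all 100 genes at 1 or above, 1.96 in the 6 carcinomas in benign mixed tumors, 1.90 in the 8 simple adenomas, 1.54 in the 5 complex adenomas, 1.44 in the 20 simple carcinomas and 0.72 in the 3 benign mixed tumors. One library stood apart: the paired carcinoma in benign mixed tumor of dog CMT-756 had a level of 2.31 over the 100 genes, where the other 5 of its group lay between 5.14 and 5.88, and 24 genes higher than in its normal tissue. Without this dog the median gain of the group was 2.63.

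Simple and complex carcinomas, the most frequent malignant kinds, were compared directly in 39 and 14 tumors outside the pairs. None of the 100 genes was called by limma, where 0.00690% of all identifiers were called. At an unadjusted p under 0.05 there were 18 of the 100 genes and 1164 identifiers in all, and the median difference of simple minus complex was 0.09, with a range of -2.39 to 2.03. The median half-width of the 95% interval was 1.08, so that differences below about 1 on the log2 scale could not be told from the spread for most of the genes. The interval is not adjusted for the number of identifiers tested, and differences of -2.39 and 2.03 also went uncalled. In the 20 simple and 19 complex carcinomas of the pairs the median was -0.62, and 2 genes, ENSCAFG00000014457 and ENSCAFG00000017965, were called lower in simple carcinomas, where 0.0618% of all identifiers were. In all 158 tumors 22 were lower, against 4.44% of all identifiers. Both counts use the paired tumors whose values chose the genes, so nothing is read from them.

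To see whether the genes already differed in the normal gland, the 48 normal tissues beside malignant tumors were compared with the 16 beside benign tumors. None of the 99 genes tested was called by limma, and 0% of all 14609 identifiers were. At an unadjusted p under 0.05 there were 7 genes and 1461 identifiers. The median difference was -0.08, the median half-width of the 95% interval was 0.74, and the gene left out, ENSCAFG00000029131, was below the filter on low values. Across dogs, the level of a gene in the tumor was only weakly related to its level in the normal tissue of the same dog, with Pearson's r between -0.17 and 0.41 over 64 dogs and a median of 0.16, against 0.21 over all identifiers.

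The NMF clusters were made from these transcriptomes, tumors and normal tissues together, so the levels by cluster are a description. Since the paper ties NMF4 and NMF5 to normal tissue, low differences from normal tissue in these clusters are in part built in. Over all tumors with a cluster, the median difference from normal tissue over the 100 genes was 1.81 in the 92 NMF1 tumors, 1.68 in the 35 NMF2 tumors, 0.67 in the 18 NMF3 tumors, 0.78 in the 5 NMF5 tumors and 0.18 in the 7 NMF4 tumors. NMF1 held the highest cluster mean for 43 genes, NMF2 for 34, NMF3 for 20 and NMF5 for 3. The lowest mean was in NMF4 for 55 genes and in NMF3 for 30. Here too, genes that vary together are counted singly. NMF3 was therefore both the highest cluster for a part of the genes and the lowest for another part, with differences from normal tissue between -1.54 and 5.35. In the 37 tumors that the annotation classes as basal the median difference was 1.16, with 90 genes above normal tissue, against 1.74 and 100 genes in the 120 non-basal tumors.

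**Figure D4:**
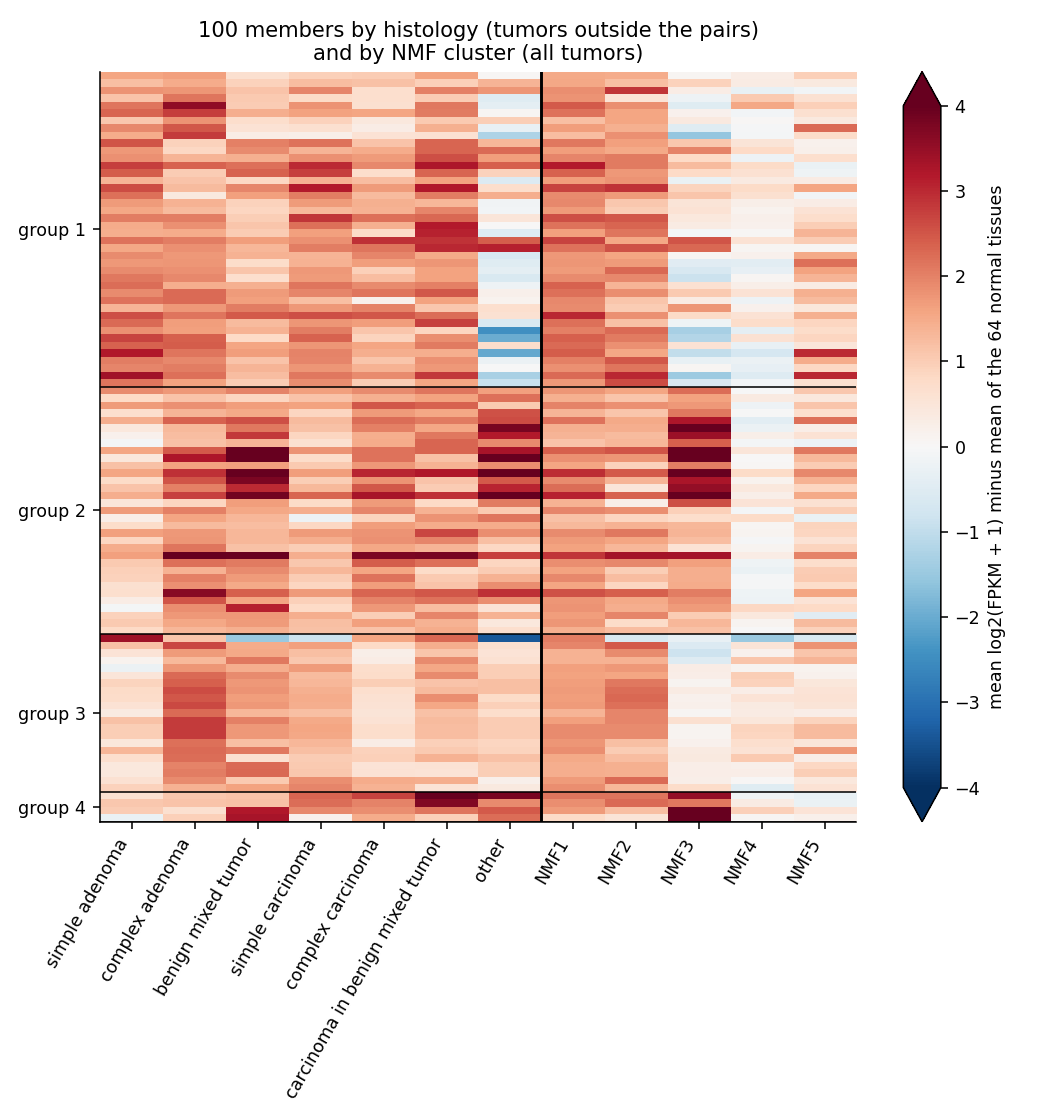
Mean log2(FPKM + 1) minus the mean of 64 normal tissues (colour) for the 100 genes (rows, in 4 groups by co-variation) in the 7 histology groups of the tumors outside the pairs (left) and in the 5 NMF clusters of all tumors (right). NMF3 is near normal tissue in groups 1 and 3, with medians of 0.31 and 0.21, and high in groups 2 and 4, with medians of 1.83 and 3.91.

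To describe how the genes vary among themselves, they were joined by the correlation of log2(FPKM + 1) over the 64 paired tumors and divided into 4 groups by average linkage. The groups, numbered 1 to 4 in this order, held 42, 33, 21 and 4 genes. The median r between genes of a group was 0.38, 0.51, 0.85 and 0.36 over the paired tumors that formed the groups. Over the 94 tumors outside the pairs it was 0.34, 0.37, 0.79 and 0.41, against 0.11, 0.07, 0.10 and 0.08 with genes of the other groups, and over the 64 normal tissues it was 0.39, 0.25, 0.81 and 0.21. These correlations share depth and tissue makeup across genes and carry no test. Over all 4950 pairs of genes the median r was 0.22 in paired tumors, 0.16 in tumors outside the pairs and 0.23 in normal tissues.

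**Figure D5:**
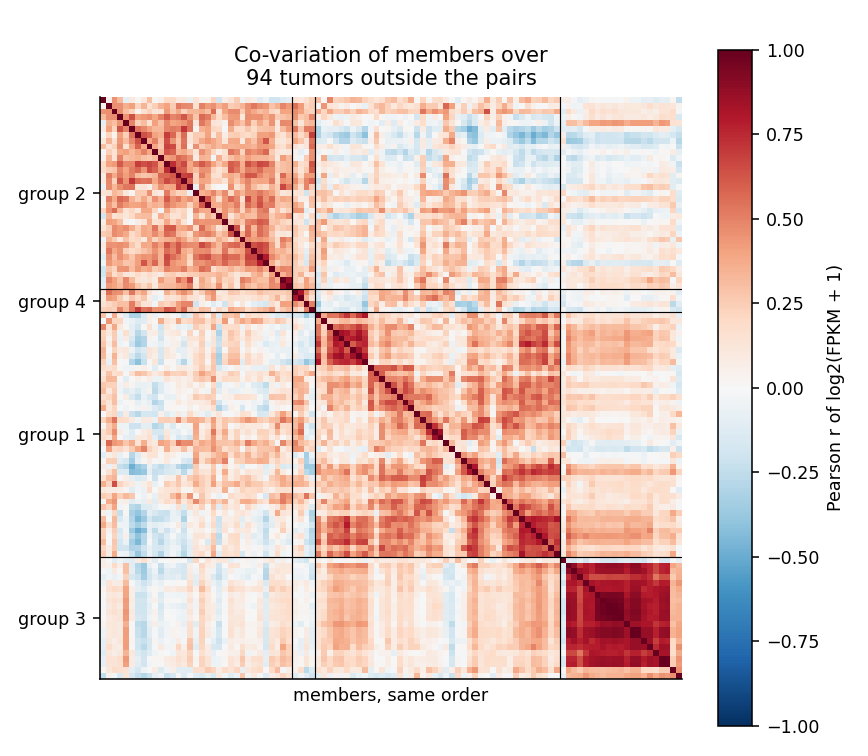
Pearson's r of log2(FPKM + 1) between the 100 genes over the 94 tumors outside the pairs (colour, from -1 to 1), with genes on both axes in the order of the linkage made on the 64 paired tumors and lines between the 4 groups. Group 3 forms the most compact block, with a median r of 0.79 among its 21 genes.

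The group of 21 genes was the most tightly linked in each of the 3 sets of libraries. It had the highest mean level in normal tissue, with a median over its genes of 42.2 FPKM against 90.7 FPKM in tumors outside the pairs, and its genes were higher in the tumor of a median of 45 dogs, fewer than in the other groups. Some of its genes followed each other almost exactly. ENSCAFG00000032195 was between 1.035 and 1.075 times ENSCAFG00000029323 in every library where both were above 0, a pair whose reads the counting may have split, so they may not be separate measurements. In all, 7 pairs among 8 identifiers had an r above 0.97 over the 222 libraries, and every one of them lay in this group. Outside the pairs 20 of the 21 were higher in simple than in complex carcinomas, 18 were higher in grade 3 than in grade 1 and 18 were lower in malignant than in benign tumors. The medians were 0.74, 0.53 and -0.48, against -0.10, -0.018 and -0.025 over all identifiers. None of the 21 passed the adjusted test in these comparisons. Genes of a group vary together, so a count with a shared direction is not a count of separate results, here or in the groups below. The grade differences are not adjusted for histology.

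The group of 33 genes, which held ENSCAFG00000011534 and ENSCAFG00000014019, had a low mean level in normal tissue, with a median over its genes of 3.48 FPKM, and a median of 55 dogs with the tumor higher. Outside the pairs 31 of its 33 genes were lower in simple than in complex carcinomas, with a median of -0.82, opposite to the group of 21. It stayed high in NMF3, with a median of 1.83 above normal tissue, and was at 0.04 in NMF4. ENSCAFG00000011534 had a median of 70.6 FPKM in NMF3, 10.2 in NMF1, 11.2 in NMF2, 1.31 in NMF5 and 0.417 in NMF4, and the median of ENSCAFG00000014019 was 49.4 FPKM in NMF3, 22.4 in NMF1, 32.1 in NMF2, 4.06 in NMF5 and 1.95 in NMF4.

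The group of 42 genes was the reverse with respect to NMF3, with a median of 0.31 above normal tissue there against 1.95 in NMF1 and 1.80 in NMF2. It held the 3 genes that were lower in grade 3, and 34 of its 42 genes were below 0 for grade 3 minus grade 1, with a median of -0.58. ENSCAFG00000008404 had the highest median r to the other genes over the paired tumors, 0.38, but 0.16 outside the pairs. It was among the most abundant of the 100 genes, between 103 and 8909 FPKM in normal tissue, with a median of 1086, and between 87.6 and 14440 FPKM in paired tumors, with a median of 4007.

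The group of 4 held ENSCAFG00000000200, ENSCAFG00000015043, ENSCAFG00000002077 and ENSCAFG00000009558, named because of this count. All 4 were higher in grade 3 than in grade 1 outside the pairs, with a median of 1.05, but none passed the adjusted test in that fit. Among the tumors of 2017 alone ENSCAFG00000002077 was called higher, with a difference of 1.79, where 2.22% of all identifiers were. In simple carcinomas alone, a fit added after the data were seen, it was called with 2.26, where 2.12% were. ENSCAFG00000002077 had a median of 30.6 FPKM in grade 3 against 7.82 FPKM in grade 1. ENSCAFG00000015043 had a median of 0.576 FPKM in normal tissue, 3.99 FPKM in tumors outside the pairs and 43.4 FPKM in NMF3.

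ENSCAFG00000009558 had the lowest median r to the other genes over the paired tumors, 0.004, and 0.01 outside the pairs, where 2 genes were lower. It was below 1 FPKM in 51 of 64 normal tissues, 29 of 64 paired tumors and 62 of 94 tumors outside the pairs, and reached 1648 FPKM in the paired tumors. Its gain of 1.59 ± 2.50 (SD, n = 64) came with the tumor higher in 45 dogs. Its median was 41.8 FPKM in the 18 NMF3 tumors and 0.498 FPKM in the 92 NMF1 tumors. ENSCAFG00000028626 was the reverse, with a median of 370 FPKM in NMF3 against 4373 FPKM in NMF1 and 1150 FPKM in normal tissue.

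By year of surgery the median gain over the 100 genes was 1.69 in the 13 dogs of 2016, 1.59 in the 40 dogs of 2017 and 2.03 in the 11 dogs of 2018, and all 100 genes were above 0 in each year, in the same pairs that chose them. The rule applied to the dogs of 1 year alone shared 63, 78 and 57 of its 100 genes with the list, and applied to the dogs with benign tumors alone it shared 66. For reference, a paired limma fit of tumor against normal called 34.6% of all 14707 identifiers higher and 1.58% higher by at least 1 on the log2 scale. Of the 100 genes 99 were called in both ways, which the rule made likely and from which nothing is read. The gene that was not called was ENSCAFG00000028483.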

How the data were processed

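RNA-seq libraries of 158 mammary tumors and 64 normal tissues were used. The authors mapped reads with TopHat2 2.0.9 to CanFam3.1 using Ensembl annotation and deposited FPKM values from Cufflinks 2.1.1; FastQC 0.10.1 and Bowtie2 are also named in the submitters' processing notes. No scaling between libraries is stated, and the read number behind each value is unknown, so no counting interval is given.

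The 100 genes and the tests were chosen with earlier results of these data known. Levels were taken as log2(FPKM + 1), so differences of weakly expressed genes are understated. Comparisons used limma 3.58.1 in R 4.3.3 with an intensity trend, two-sided, over identifiers with a mean of at least 0.5 FPKM in the libraries compared, with Benjamini-Hochberg adjustment over all of them and a threshold of 0.05. Scripts ran in Python 3.11.15, and the fit was tested on simulated data. Histology, grade and malignancy came from the labels, while NMF cluster, basal class and mapping rate came from the study's annotation, which lacks 1 tumor. No sequencing batch is given, so surgery year stood in.

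Identifiers to be named were at most 2 in each direction per comparison: the 2 with the largest gain, the called ones with the largest difference and a mean of at least 5 FPKM in the higher group, the 2 with the largest range over histologies, and those with the highest and lowest median r. A planned check of cell type markers needs gene names and was not made. Both tissues of a pair came from 1 dog by the labels. The deviations of a dog's tissues from their group means correlated with a mean r of 0.20, above 0 in 51 of 64 dogs, and the dog was the block of the paired fit. The highest r between a pair of libraries was 0.964, so none repeats another. Pseudocount, filter, scaling, covariates and sets of tumors were varied.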

Additional observations from a re-analysis of the deposited data

Results flagged for a closer look

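The mean level over the 100 genes was examined for a lowest or highest library standing apart from the rest of its group, in 10 groups of 5 to 10 tumors and 3 groups of 5 to 8 normal tissues. In 1 of these 13 groups the gap to the nearest library was larger than Dixon's 95% limit: among the 6 paired carcinomas in benign mixed tumors, the tumor of dog CMT-756 had a level of 2.31, and the next was 5.14. Chance gives about 1 such group in 20. The tumor has grade 2 and was assigned to NMF4, and its genes lay below those of its normal tissue by a mean of -1.57 on the log2 scale.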

How the results depend on the processing

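The list of 100 shared 75 genes with that made at a pseudocount of 0.1 and 95 at 0.5, 80 with one by the median difference, all 100 with median-scaled values and with other filters on low values, and 93 with dogs with malignant tumors alone. It shared 63 with the dogs of 2016, 57 with those of 2018 and 66 with dogs with benign tumors, and the cause was not tested, though each rests on fewer dogs. Alternatives added after the data were seen left out the largest paired difference of each sign, which kept 99, or pairs with a value listed at 0, which kept 94. Without the replicate block for the dog, the pairing of tissues left 99 of the 100 genes called higher, a count that the rule itself fixed, while 4634 of all identifiers were called higher in place of 5094 and 2749 lower in place of 3058.

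For grade, the count lower in grade 3 was 3 in the main fit, where 3.60% of all identifiers were lower. It was 5 with surgery year as covariate, against 5.17% of all identifiers, and 5 with mapping rate, against 4.45%. Without the other histologies it was 8, against 4.39%. It was 20 in the paired tumors, against 7.32%, 22 in all tumors, against 12.3%, and 0 in 2016 with few tumors. The count higher was 0 in the main fit, 2 in the paired tumors, against 4.85%, and 2 in all tumors, against 9.05%. It was 1 in 2017, against 2.22%, and 1 in simple carcinomas alone, against 2.12%, both times ENSCAFG00000002077. Counts with the paired tumors use values that chose the genes. The fits without the other histologies and in simple carcinomas alone were added after the data were seen. For malignancy the count higher was 1 in all tumors, against 0.329%. For simple against complex carcinomas 2 were lower in the paired tumors, against 0.0618%, and 22 in all, against 4.44%. For histology 19 were called in all tumors, against 2.41%, and 8 with a seventh group, against 2.58%. The cause was not tested. In the other 87 settings the counts stayed within 1.5 times of the main count. Many of these were 0 in both fits, and the paired count of 99 was fixed by the rule, so they show little on stability. Depth per value is unknown and limits the weakly expressed genes.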
